A study of Homo sapiens with 27 samples.

Results

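Poly(A)+ RNA from the nuclei of control U2OS cells was compared with poly(A)+ RNA from the cytoplasm and endoplasmic reticulum (ER) of the same cultures. The members were the samples whose titles name them as control nuclear and control cytoplasmic, replicates 1 to 3, which made 6 of the 27 samples of the series. U2OS is an established human osteosarcoma line. All 6 samples came from cells that carried a lentiviral control shRNA (a scrambled sequence), were selected with puromycin and were not depleted of TPR, the nuclear basket protein that the series set out to study. They are pools of infected cells of 1 line, and the shRNA treatments of the series lasted 5 days. The cells were opened with Triton X-100 and sodium deoxycholate, the pelleted nuclei gave the nuclear fraction, and the supernatant gave the cytoplasmic fraction, which holds the ER and is called cytoplasmic/ER here. Other samples of the series were total RNA of the same cultures, and the 3 fractions of cells treated with the shRNAs TPR A or TPR D. The value deposited for each gene was FPKM, fragments per kb of transcript scaled to the size of the library. Of 34464 genes, 14611 had a mean above 1 FPKM over the 27 libraries and lay outside the mitochondrial genome, and these were analysed.

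Messenger RNAs are made, capped, spliced and polyadenylated in the nucleus, and leave it through nuclear pores with the help of the TREX complex and the export receptor NXF1. An mRNA found mostly in the nucleus can be one that leaves slowly, one that is held back because an intron is still in place, or one that does not last long in the cytoplasm. Some long noncoding RNAs work inside the nucleus, of which MALAT1 and NEAT1 are the standard examples, while others act on ribosomes or microRNAs in the cytoplasm. The N/C ratio is the level of an RNA in the nuclear library divided by that in the cytoplasmic/ER library, given here as log2 (log2 N/C), so that 1 is a doubling and negative values are higher in the cytoplasmic/ER fraction. It is a relative scale, since libraries were levelled by the median ratio of their genes and not by the amount of RNA in a cell. In bulk RNA, fewer cells with an RNA and less of that RNA in each cell cannot be told apart.

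At the depth estimated from the smallest steps between low values, 1 FPKM on 1 kb of transcript stood for 46.1 to 49.8 reads in the nuclear and 32.00 to 40.1 in the cytoplasmic/ER libraries. Transcripts of the mitochondrial genome, which are made outside the nucleus, took 0.969, 21.8 and 0.944% of the summed FPKM in nuclear replicates 1, 2 and 3, against 34.3, 35.8 and 26.5% in cytoplasmic/ER replicates 1, 2 and 3. The groups did not overlap (7.899% ± 12.03 against 32.2% ± 5.004, SD, n = 3 each, two-sided exact permutation p = 0.1, the smallest that 3 against 3 allows). Nuclear replicate 2 stood apart from the other nuclear libraries: its share was close to the 19.9% and 21.6% of control total replicates 1 and 3, while total replicate 2 had 0.738%. For correlations across the genes analysed, means were taken over all libraries of a fraction in the series, TPR-depleted cells included. Nuclear replicate 2 had r = 0.977 with the mean of the total libraries and r = 0.944 with that of the other nuclear libraries. Total replicate 2 had r = 0.973 with the nuclear and r = 0.9401 with the other total libraries. Whether these libraries were exchanged is not said in the labels and was not tested, so values of the library labelled nuclear replicate 2 may be those of total RNA. This library was kept under its label, and counts are also given without culture 2. The genes of the osteoblast lineage were unevenly present: RUNX2 was at 6.25 to 16.2 FPKM and SPARC at 326 to 749 FPKM in the 6 libraries, but BGLAP (osteocalcin) and IBSP were at or below 0.125 FPKM. Replicate 1 is written in another style in the labels than replicates 2 and 3, so values are also given culture by culture.

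The levels of 2945 genes were higher in the nuclear and those of 2805 higher in the cytoplasmic/ER libraries (limma over all genes tested, Benjamini-Hochberg adjusted p below 0.05), which is 20.2% and 19.2% of the genes tested. Without culture 2 the counts were 2279 and 2071 (15.6% and 14.2%), and without culture 1, which lowered them most, 1895 and 1794. Of the calls without culture 2, 91.2% and 91.2% were also called with all 3 cultures, in which they made 70.6% and 67.3% of the calls, and no gene was called in opposite directions. Nuclear differences reached further: 344 of the genes called nuclear (11.7%) differed by more than 4-fold, against 80 (2.85%) of those called cytoplasmic. The 3 nuclear values lay above all 3 cytoplasmic/ER values for 3460 genes and below them for 3661. Levels near 0 on a side were found in a minority, with a cytoplasmic/ER mean of 1 FPKM or less in 372 of the nuclear genes and a nuclear mean of 1 FPKM or less in 106 of the cytoplasmic ones. Across genes, log2 N/C of cultures 1 and 3 correlated with Spearman rho 0.85, cultures 1 and 2 with 0.75 and cultures 2 and 3 with 0.72, where genes are not independent replicates.

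**Figure D1:**
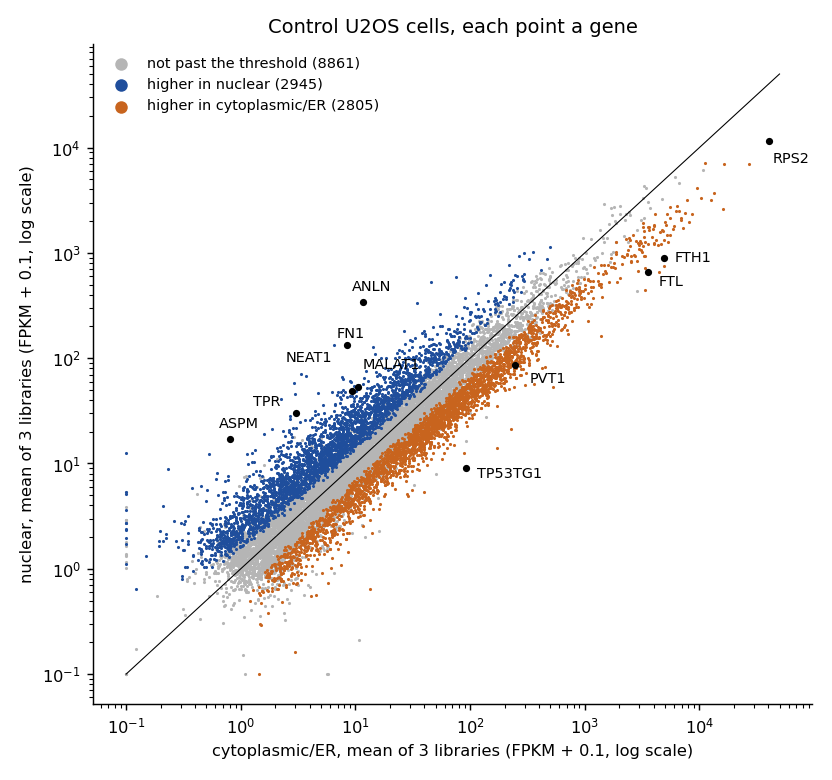
Mean FPKM + 0.1 of the 3 nuclear libraries against that of the 3 cytoplasmic/ER libraries on log scales, 1 point a gene, with genes past an adjusted p of 0.05 in colour and the line of equal levels. The 2945 nuclear genes lie above the line, ANLN, ASPM and FN1 among the farthest, and the 2805 cytoplasmic/ER genes lie below it and include the most abundant, such as RPS2, whose difference was lost under quantile normalization.

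Protein-coding genes were called in both directions about equally (2692 nuclear and 2385 cytoplasmic/ER of 12381). The coding sequences of a few mRNAs at either end are shown because they differ in base composition as well as in length. Each is a stretch of 90 bases from the middle of the longest coding exon of the canonical transcript, read 5′ to 3′ from GRCh37, with G and C in capitals. ANLN and TPR mRNAs were called nuclear, and those of FTL, PPDPF and RPS2 cytoplasmic/ER.
ANLN: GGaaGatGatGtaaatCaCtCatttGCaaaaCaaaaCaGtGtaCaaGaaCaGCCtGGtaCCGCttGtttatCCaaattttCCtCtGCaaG
TPR: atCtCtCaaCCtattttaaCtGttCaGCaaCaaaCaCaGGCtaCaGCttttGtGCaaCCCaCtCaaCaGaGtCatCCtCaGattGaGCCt
FTL: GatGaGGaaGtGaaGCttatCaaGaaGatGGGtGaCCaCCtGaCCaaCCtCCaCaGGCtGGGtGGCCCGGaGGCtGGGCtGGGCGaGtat
PPDPF: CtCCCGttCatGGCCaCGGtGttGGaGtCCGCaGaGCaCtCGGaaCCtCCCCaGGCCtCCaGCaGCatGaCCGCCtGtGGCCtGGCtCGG
RPS2: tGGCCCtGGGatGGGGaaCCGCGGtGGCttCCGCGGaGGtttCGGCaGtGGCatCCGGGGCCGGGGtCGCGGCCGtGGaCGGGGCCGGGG
The ANLN stretch lies at chr7:36445938-36446027 (+ strand, exon 4 of 24) and that of TPR at chr1:186302345-186302434 (-, exon 37 of 51). The FTL stretch lies at chr19:49469870-49469959 (+, exon 4 of 4), that of PPDPF at chr20:62153080-62153169 (+, exon 4 of 4) and that of RPS2 at chr16:2014493-2014582 (-, exon 2 of 7). Without the stop codon, the whole coding sequences of ANLN and TPR have 3372 and 7089 nt and a GC content of 42.2% and 41.6%. Those of FTL, PPDPF and RPS2 have 525, 342 and 879 nt and 57%, 68.7% and 61.8%.

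ANLN, which encodes the actin-binding cytokinesis protein anillin, had the highest log2 N/C of the mRNAs that the naming rule admitted (mean of at least 5 FPKM, called, same sign in each culture). It was at 411, 287 and 332 FPKM in the nuclear and 8.38, 7.95 and 18.1 FPKM in the cytoplasmic/ER libraries (log2 N/C 5.02 ± 0.38 (SE), limma adjusted p = 1.7e-08). The spindle and microcephaly gene ASPM was at 17.9, 18.1 and 15.4 FPKM in the nuclear and 0.674, 0.661 and 0.771 FPKM in the cytoplasmic/ER libraries (log2 N/C 4.45 ± 0.33 (SE), limma adjusted p = 1.7e-08). The groups of neither gene overlapped, and over the 3 cultures log2 N/C was 4.22 to 5.63 for ANLN and 4.18 to 4.62 for ASPM. Next came the submembrane scaffold: SPTBN1, a beta spectrin, was at 77.6, 44.2 and 91.2 FPKM in the nuclear and 3.19, 3.03 and 3.46 FPKM in the cytoplasmic/ER libraries (log2 N/C 4.39 ± 0.33 (SE), limma adjusted p = 1.7e-08). SPTAN1, its alpha spectrin partner, was at 65.9, 26.9 and 81.8 FPKM in the nuclear and 2.52, 2.06 and 3.92 FPKM in the cytoplasmic/ER libraries (log2 N/C 4.25 ± 0.36 (SE), limma adjusted p = 1e-07). UTRN (utrophin) and IQGAP1, both large actin-linked proteins, and CGN (cingulin of tight junctions) had log2 N/C of 4.51, 4.34 and 4.37. COL12A1, a collagen, and CENPF, a kinetochore protein, had 4.24 and 3.98. Fibronectin (FN1), secreted into the matrix, was at 243, 42.8 and 114 FPKM in the nuclear and 11.1, 4.56 and 9.63 FPKM in the cytoplasmic/ER libraries (log2 N/C 3.77 ± 0.45 (SE), limma adjusted p = 5.1e-06), so nuclear replicate 2 was the lowest of the nuclear libraries, yet above each cytoplasmic/ER value. All 10 were also called without culture 2, with log2 N/C of 3.61 to 4.92.

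At the cytoplasmic/ER end of the mRNAs that the naming rule admitted, the lowest ratios were those of copies of a mitochondrial gene (described next). Those of both ferritin chains, which store iron, followed. Ferritin genes, like those of ribosomal proteins, have processed pseudogenes that were not in the index, so reads from those would count for the parent gene. FTL, the light chain, was at 452, 1172 and 365 FPKM in the nuclear and 3138, 4327 and 3214 FPKM in the cytoplasmic/ER libraries (log2 N/C -2.57 ± 0.36 (SE), limma adjusted p = 2.1e-05). FTH1, the heavy chain, was at 647, 1394 and 617 FPKM in the nuclear and 4371, 5310.4 and 5038 FPKM in the cytoplasmic/ER libraries (log2 N/C -2.53 ± 0.35 (SE), limma adjusted p = 1.9e-05). Neither gene's groups overlapped, but nuclear replicate 2 was the highest nuclear value of both, and without culture 2 the log2 N/C was -2.94 and -2.86. BBLN was at 56.2, 64.6 and 44.3 FPKM in the nuclear and 354, 289.9 and 267 FPKM in the cytoplasmic/ER libraries (log2 N/C -2.43 ± 0.24 (SE), limma adjusted p = 7.2e-07), and PPDPF at 76.9, 99.3 and 66.5 FPKM in the nuclear and 499, 408 and 371 FPKM in the cytoplasmic/ER libraries (log2 N/C -2.37 ± 0.27 (SE), limma adjusted p = 3.8e-06). The zinc finger gene ZNF688 had a log2 N/C of -2.42 and UBE3D, which encodes an E3 ubiquitin ligase, of -2.39 (adjusted p = 0.04), and the call of UBE3D was lost without any of the 3 cultures (adjusted p = 0.052 without culture 2).

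The 4 admitted genes with still lower ratios were MTRNR2L1, MTRNR2L3, MTRNR2L6 and MTRNR2L10, with log2 N/C of -3.83, -4.14, -3.45 and -3.98. They are nuclear copies of the mitochondrial 16S rRNA gene MT-RNR2 that keep the humanin reading frame. Their reading frames are shown beside the same stretch of MT-RNR2 (chrM:2633-2704, GRCh37) because the likeness decides how far reads can be assigned, and capitals mark the bases that differ from MT-RNR2.
MT-RNR2: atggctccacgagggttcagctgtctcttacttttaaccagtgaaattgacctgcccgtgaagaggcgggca
MTRNR2L1: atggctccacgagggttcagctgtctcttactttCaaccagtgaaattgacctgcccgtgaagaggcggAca
MTRNR2L3: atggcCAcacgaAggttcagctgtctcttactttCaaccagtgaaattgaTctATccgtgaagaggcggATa
MTRNR2L6: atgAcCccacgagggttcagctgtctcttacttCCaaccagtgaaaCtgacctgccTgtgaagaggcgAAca
MTRNR2L10: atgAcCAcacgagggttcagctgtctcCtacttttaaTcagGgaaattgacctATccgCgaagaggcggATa
The frames lie at chr17:22023388-22023459 (+), chr20:55934024-55934095 (-), chr7:142375063-142375134 (+) and chrX:55208356-55208427 (-), each inside 1 exon. Over 72 bases they differ from MT-RNR2 at 2, 9, 8 and 11 bases. The authors' index held protein-coding and long noncoding transcripts, so reads of the 16S rRNA could be counted for these genes, and their values are uncertain. MTRNR2L1 was at 45.1, 396 and 44.5 FPKM in the nuclear and 1078, 1733 and 1320.3 FPKM in the cytoplasmic/ER libraries, the pattern of the mitochondrial transcripts: MT-CO1, a subunit of cytochrome oxidase, was at 963, 10462 and 879 FPKM in the nuclear and 29508, 32836 and 25155 FPKM in the cytoplasmic/ER libraries. Of the genes highest on average in the cytoplasmic/ER libraries, ENSG00000269028, which has no symbol in the annotation used, showed the same pattern, with 667, 6679 and 520.3 FPKM in the nuclear and 14017, 17446 and 16605 in the cytoplasmic/ER libraries.

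**Figure D2:**
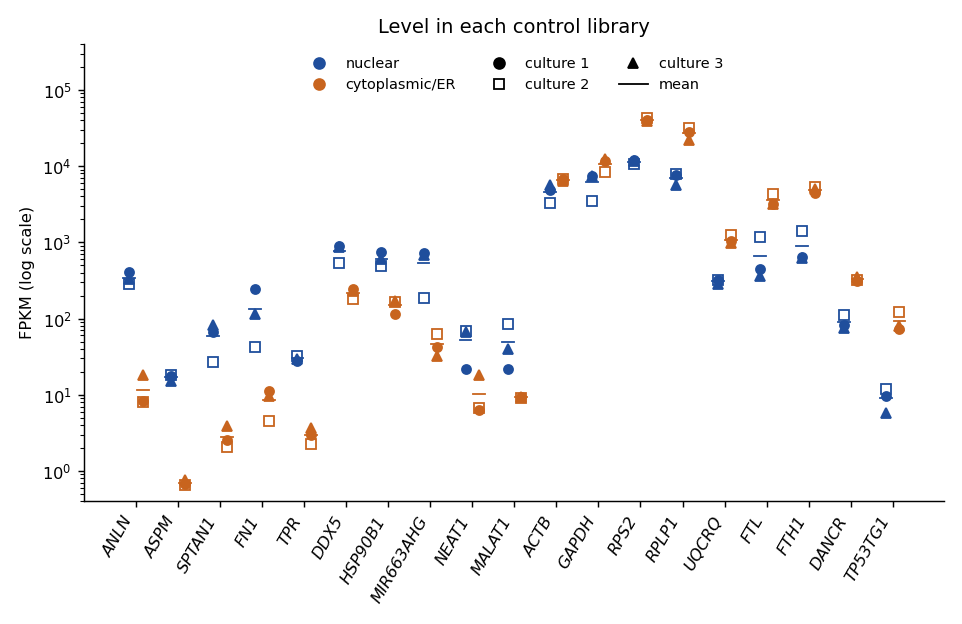
FPKM on a log scale of 19 named genes in each of the 3 nuclear (blue) and 3 cytoplasmic/ER (orange) libraries, with the mean as a line and culture 2 as open squares. The groups are apart for ANLN, with 411, 287 and 332 against 8.38, 7.95 and 18.1 FPKM, and in the other direction for FTL, whose open nuclear square lies above the other nuclear points.

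The genes of the extracellular matrix, most of them translated on the ER, had the highest median of the lists in the fit of 3 cultures: 31 of 48 were higher in the nuclear and 0 in the cytoplasmic/ER libraries, against 20.2% and 19.2% of all genes, with a median log2 N/C of 1.44 where the median of all genes was -0.014. In cultures 1, 2 and 3 the median was 1.86, 1.26 and 1.42, and without cultures 1, 2 and 3 in turn, 22, 32 and 27 were called nuclear and 0, 0 and 0 cytoplasmic/ER. FBN2, a fibrillin of elastic fibres, was at 31.9, 21.3 and 25.5 FPKM in the nuclear and 2.38, 1.46 and 3.87 FPKM in the cytoplasmic/ER libraries (log2 N/C 3.42 ± 0.32 (SE), limma adjusted p = 4.3e-07). Collagen IV COL4A5 had 3.15 and FBN1 3.18. TGFBI, a matrix adaptor and the lowest member, was at 447, 478 and 296 FPKM in the nuclear and 753, 885 and 501 FPKM in the cytoplasmic/ER libraries and had a log2 N/C of -0.76 (adjusted p = 0.15, and 0.0012 with the culture as a block). COL1A1, the main bone collagen, was at 44.1, 29.6 and 48.04 FPKM in the nuclear and 34.7, 27.8 and 31.9 FPKM in the cytoplasmic/ER libraries and did not pass the test (log2 N/C 0.38, adjusted p = 0.31).

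Of 20 chaperones and translocon parts of the ER, 9 (45%) were higher in the nuclear and 2 (10%) in the cytoplasmic/ER libraries. Of all genes it was 20.2% and 19.2%. The median log2 N/C of the list was 0.47, and 0.87, 0.25 and 0.56 in cultures 1, 2 and 3. HSP90B1, the ER form of HSP90, was at 744, 495 and 597 FPKM in the nuclear and 114, 166 and 171 FPKM in the cytoplasmic/ER libraries (log2 N/C 2.07 ± 0.33 (SE), limma adjusted p = 8e-05). HSPA5 (BiP), the main ER chaperone, was at 508, 239.6 and 505 FPKM in the nuclear and 83.5, 123 and 142 FPKM in the cytoplasmic/ER libraries (log2 N/C 1.83 ± 0.39 (SE), limma adjusted p = 0.00097), and the lectin chaperone CANX had 1.60. Here too nuclear replicate 2 was the lowest nuclear value. The small members SDF2L1 and SEC61B, the latter a subunit of the translocon, had -0.84 and -0.61, and both calls were lost without culture 2 (adjusted p = 0.13 and 0.37). With the culture as a block SEC61B was not called either (adjusted p = 0.062), nor was it without cultures 1 or 3. For the list, without cultures 1, 2 and 3 in turn, 5, 9 and 9 were called nuclear and 1, 0 and 1 cytoplasmic/ER.

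Among 22 genes of mitosis, 12 (54.5%) were higher in the nuclear and 1 (4.55%) in the cytoplasmic/ER libraries, against 20.2% and 19.2% of all genes (median 0.97). The proliferation marker MKI67 was at 53.8, 50.3 and 36.4 FPKM in the nuclear and 4.38, 3.74 and 5.598 FPKM in the cytoplasmic/ER libraries (log2 N/C 3.36 ± 0.32 (SE), limma adjusted p = 5.2e-07), the kinetochore motor CENPE had a log2 N/C of 3.10 and the checkpoint kinase BUB1B of 1.94. The list was not uniform. BIRC5 (survivin), a small protein of the same centromere complex as AURKB, was at 113, 111 and 63.96 FPKM in the nuclear and 258, 222 and 114 FPKM in the cytoplasmic/ER libraries (log2 N/C -0.97 ± 0.35 (SE), limma adjusted p = 0.029), and this call was lost without culture 2 (adjusted p = 0.094) and without culture 1. CDC20, PLK1, AURKB and CCNB2 did not pass the test, with log2 N/C of -0.45, -0.32, -0.32 and -0.15, of which PLK1 (0.015) and CCNB2 (0.21) changed sign under quantile normalization.

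Genes of which part of the polyadenylated RNA is known to keep an intron in the nucleus, most of them splicing factors and kinases that regulate them, lay mostly on the nuclear side. Of 43, 31 (72.1%) were higher in the nuclear and 0 in the cytoplasmic/ER libraries, against 20.2% and 19.2% of all genes. The median was 1.03, and 0.91, 0.99 and 1.01 in cultures 1, 2 and 3. PNISR, a splicing-related protein, was at 17.97, 28.7 and 24.1 FPKM in the nuclear and 4.04, 5.12 and 5.97 FPKM in the cytoplasmic/ER libraries (log2 N/C 2.23 ± 0.26 (SE), limma adjusted p = 4.5e-06). OGT, the enzyme that puts GlcNAc on nuclear and cytosolic proteins, was at 30.9, 32.8 and 39.4 FPKM in the nuclear and 7.93, 5.42 and 10.8 FPKM in the cytoplasmic/ER libraries (log2 N/C 2.16 ± 0.28 (SE), limma adjusted p = 8.8e-06), and OGA, which removes it, had 1.73. The RNA helicase DDX5 was abundant and still nuclear, at 883, 538 and 879 FPKM in the nuclear and 242, 181 and 232 FPKM in the cytoplasmic/ER libraries (log2 N/C 1.82 ± 0.22 (SE), limma adjusted p = 5.1e-06). DDX39B (UAP56), the helicase of TREX, was among the members that did not pass the test, at 1036, 505 and 1102 FPKM in the nuclear and 1015, 815 and 982 FPKM in the cytoplasmic/ER libraries (log2 N/C -0.13, adjusted p = 0.79, and 0.59 under quantile normalization). The deposited values are sums per gene, so intron-containing and spliced RNA were not measured apart. Without culture 2, 28 members were called nuclear and 0 cytoplasmic/ER.

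Zinc finger genes named ZNF, mostly transcription repressors of the KRAB family, were also called nuclear more often. Of 408, 164 (40.2%) were higher in the nuclear and 36 (8.82%) in the cytoplasmic/ER libraries, against 20.2% and 19.2% of all genes. The median was 0.58, and 0.49 without culture 2. Without cultures 1, 2 and 3 in turn, 116, 107 and 130 were called nuclear and 21, 22 and 26 cytoplasmic/ER. ZNF638, an RNA-binding member, was at 61.2, 49.6 and 71.5 FPKM in the nuclear and 9.24, 5.97 and 11.2 FPKM in the cytoplasmic/ER libraries (log2 N/C 2.84 ± 0.25 (SE), limma adjusted p = 2.1e-07), and ZNF224, a KRAB repressor, had 2.28. ZNF358 lay at the other end with -2.13. Many of these genes were lowly expressed, as ZNF224 was at 5.91, 5.77 and 5.82 FPKM in the nuclear and 1.17, 0.989 and 1.32 FPKM in the cytoplasmic/ER libraries.

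The mRNAs of cytosolic ribosomal proteins, which are short, abundant and heavily translated, had the lowest median of the lists in the 3-culture fit. But lncRNAs known from the cytoplasm lay lower without culture 2 (-1.36 against -1.29) and in culture 3. Under quantile normalization, known cytoplasmic lncRNAs (-0.96), snoRNA host genes (-0.70), replication-dependent histones (-0.63) and LINC lncRNAs (-0.63) lay below the ribosomal list (-0.41). So did antisense lncRNAs (-0.56), the respiratory chain (-0.55) and the mitochondrial ribosome (-0.44). Of 86 ribosomal protein genes, 80 (93%) were higher in the cytoplasmic/ER libraries and 1 (1.16%) in the nuclear ones, against 19.2% and 20.2% of all genes. Their median log2 N/C was -1.40, and -1.10, -1.67 and -1.41 in cultures 1, 2 and 3. Together they made 17.7, 17.7 and 16.04% of the summed non-mitochondrial FPKM of the nuclear and 29.7, 32.5 and 31.7% of that of the cytoplasmic/ER libraries. Quantile normalization, which forces equal distributions on all libraries, left 35 called cytoplasmic/ER and 2 nuclear, with a median of -0.41, and took the call of RPLP1 and the whole difference of RPS2, which ranked first in each library and so got equal values. Without culture 2, 62 were called cytoplasmic/ER and 0 nuclear. RPS12 had the lowest ratio, with 636, 933 and 573 FPKM in the nuclear and 2925, 4219.7 and 3018 FPKM in the cytoplasmic/ER libraries (log2 N/C -2.22 ± 0.29 (SE), limma adjusted p = 1.2e-05). RPS2, the gene with the highest mean in both fractions, was at 11962, 10767 and 11646 FPKM in the nuclear and 39693, 42479.9 and 39326 FPKM in the cytoplasmic/ER libraries (log2 N/C -1.79 ± 0.20 (SE), limma adjusted p = 2.8e-06), and RPLP1 of the ribosomal stalk was at 7699, 7761 and 5648 FPKM in the nuclear and 27635, 31793 and 21727 FPKM in the cytoplasmic/ER libraries (log2 N/C -1.90 ± 0.30 (SE), limma adjusted p = 6.3e-05). RPS19 had -1.84 and RPL10 -1.22, the latter not called without culture 2 and reversed under quantile normalization (0.0075), as were RPL3 (-0.53, not called without any of the cultures, then 0.36) and RPL6, which did not pass the test (-0.49, then 0.61). RPL7L1, the member called nuclear, is a nucleolar factor of ribosome assembly and not a subunit, and was at 115, 123 and 124 FPKM in the nuclear and 90.3, 89.2 and 91.6 FPKM in the cytoplasmic/ER libraries (log2 N/C 0.45 ± 0.15 (SE), limma adjusted p = 0.018, but 0.055 without culture 2, and not called without cultures 1 or 3 either).

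Nuclear genes for mitochondrial proteins followed. Of 77 subunits of the respiratory chain and ATP synthase, 49 (63.6%) were higher in the cytoplasmic/ER and 1 (1.3%) in the nuclear libraries (median -0.98). Of 77 proteins of the mitochondrial ribosome it was 37 (48.1%) and 2 (2.6%), with a median of -0.67. Of all genes, 19.2% and 20.2% were called in these directions. UQCRQ, a small subunit of complex III, was at 319, 318 and 285 FPKM in the nuclear and 1026, 1251 and 988 FPKM in the cytoplasmic/ER libraries (log2 N/C -1.78 ± 0.31 (SE), limma adjusted p = 0.00017), and NDUFS8 of complex I had -1.68. The exception was the largest subunit of complex I, NDUFS1, at 68.02, 44.4 and 71.9 FPKM in the nuclear and 33.99, 27.8 and 37.4 FPKM in the cytoplasmic/ER libraries (log2 N/C 0.91 ± 0.20 (SE), limma adjusted p = 0.0014). In the mitochondrial ribosome, MRPS15 had -1.75, while MRPS31 and MRPS9 were the members called nuclear (1.04 and 0.84, the latter not without culture 1). Without culture 2, 25 respiratory and 15 ribosomal genes were called cytoplasmic/ER, with medians of -0.77 and -0.51, and without culture 1 36 and 23.

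Translation factors were divided within the list (the name pattern also takes in EIF4EBP and EIF2AK genes, which are regulators). Of 58, 6 (10.3%) were higher in the nuclear and 19 (32.8%) in the cytoplasmic/ER libraries, against 20.2% and 19.2% of all genes. Without cultures 1, 2 and 3 in turn, 6, 8 and 6 were called nuclear and 10, 9 and 12 cytoplasmic/ER. The large factors EIF5B, which joins the ribosomal subunits, and EIF3A, the scaffold of eIF3, were at 52.6, 51.1 and 64.5 and 139.6, 126 and 171 FPKM in the nuclear and 8.33, 10.9 and 12.8 and 27.7, 26.7 and 39.2 FPKM in the cytoplasmic/ER libraries, with log2 N/C of 2.43 and 2.26. The lowest ratio of the list was -3.59, and the small cap-binding inhibitor EIF4EBP1 had -1.97. EEF1A1, the most abundant elongation factor, was at 7040.1, 5852 and 8577 FPKM in the nuclear and 10138, 10110.1 and 13266 FPKM in the cytoplasmic/ER libraries (log2 N/C -0.61 ± 0.22 (SE), limma adjusted p = 0.029), but had 0.57 under quantile normalization and an adjusted p of 0.12 without culture 2, and was not called without cultures 1 or 3.

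Of 29 genes of mRNA export itself, 7 (24.1%, against 20.2% of all genes) were called nuclear and 3 (10.3%, against 19.2%) cytoplasmic/ER (median 0.0043), and without cultures 1, 2 and 3 in turn, 5, 6 and 5 were called nuclear and 1, 2 and 2 cytoplasmic/ER. TPR, the target of the series' other shRNAs, had the highest ratio of them, with 28.1, 31.9 and 29.8 FPKM in the nuclear and 2.97, 2.26 and 3.66 FPKM in the cytoplasmic/ER libraries (log2 N/C 3.35 ± 0.36 (SE), limma adjusted p = 1.9e-06). THOC2, the large subunit of the THO complex of TREX, was at 28.4, 29.1 and 27.7 FPKM in the nuclear and 5.75, 7.09 and 5.35 FPKM in the cytoplasmic/ER libraries (log2 N/C 2.26 ± 0.30 (SE), limma adjusted p = 1.1e-05), and ZC3H11A, THOC1 and the basket nucleoporin NUP153 had 1.75, 1.31 and 1.13. NXT1, the small partner of the export receptor NXF1, was the lowest, at 15.9, 14.3 and 13.7 FPKM in the nuclear and 34.3, 46.6 and 34.03 FPKM in the cytoplasmic/ER libraries (log2 N/C -1.33 ± 0.29 (SE), limma adjusted p = 0.00099).

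Of 23 replication-dependent histone genes, whose mRNAs normally end in a stem-loop and not in a poly(A) tail, 5 were higher in the cytoplasmic/ER (21.7%, against 19.2% of all genes) and 0 in the nuclear libraries (median -0.45). For these, without cultures 1, 2 and 3 in turn, 0, 0 and 0 were called nuclear and 3, 2 and 5 cytoplasmic/ER, and with the culture as a block 1 was called nuclear and 8 cytoplasmic/ER. H4C3 was at 19.2, 6.42 and 7.52 FPKM in the nuclear and 96.3, 48.3 and 26.6 FPKM in the cytoplasmic/ER libraries and H4C8 at 1.79, 2.05 and 2.21 FPKM in the nuclear and 10.8, 6.71 and 5.68 FPKM in the cytoplasmic/ER libraries, with log2 N/C of -2.30 (adjusted p = 0.011) and -1.80 (adjusted p = 0.00076), and H4C3 was not called without culture 2. The median was negative in each culture (-0.87, -0.78 and -0.44). Of 10 histone genes with polyadenylated mRNAs, 2 passed the test towards the cytoplasmic/ER side, H2AX (-0.90) and H2AZ2 (-0.80), and neither did without culture 2 or without culture 1. With the culture as a block 4 did.

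Other lists held few calls, where 20.2% of all genes were called nuclear and 19.2% cytoplasmic/ER. Immediate early genes, whose mRNAs are made and degraded fast, gave 2 nuclear (6.06%) and 5 cytoplasmic/ER genes (15.2%) of 33. But without cultures 1, 2 and 3 in turn, 0, 4 and 0 were called nuclear and 2, 0 and 2 cytoplasmic/ER. The nuclear ones were the matricellular genes CCN1 and CCN2, at 421, 288 and 668 and 233, 116 and 471 FPKM in the nuclear against 146, 219 and 302 and 55.7, 66.5 and 178 FPKM in the cytoplasmic/ER libraries. The groups of both overlapped, although the nuclear value was the higher in each culture (log2 N/C 1.06 and 1.46), and both calls were lost without culture 1 or 3. JUND and ID3 were among those called cytoplasmic/ER (-0.77 and -0.75), but not without culture 2 or 3 or under quantile normalization. Of 36 proteasome genes 3 (8.33%) were nuclear and 6 (16.7%) cytoplasmic/ER, and 5 and 2 without culture 2. They ran from PSMD1, the largest subunit, with 1.02, to PSMB10 with -1.10, whose call was lost without culture 2. Of 17 glycolytic genes, hexokinase HK2 (1.56) and PFKM (0.78, not called without culture 1 or 3) were nuclear and TPI1 (-0.93) was cytoplasmic/ER, though not without culture 1 or 2. With the culture as a block 3 glycolytic genes were called cytoplasmic/ER. GAPDH, often used to mark the cytoplasm, was at 7494, 3510.2 and 7397 FPKM in the nuclear and 11703, 8487 and 12245 FPKM in the cytoplasmic/ER libraries and did not pass the test (log2 N/C -0.84 ± 0.35 (SE), limma adjusted p = 0.059, with 0.47 under quantile normalization). Among 13 actins and tubulins only TUBG1 passed it (-0.83, adjusted p = 0.092 without culture 2 and not called without culture 1), and ACTB was at 4881, 3286 and 5709.8 FPKM in the nuclear and 6770.5, 6693 and 6444 FPKM in the cytoplasmic/ER libraries (log2 N/C -0.52, adjusted p = 0.21, and 0.69 under quantile normalization). Under quantile normalization the medians of the translation, proteasome, glycolysis and cytoskeleton lists changed sign, from -0.11, -0.12, -0.20 and -0.38 to 0.16, 0.17, 0.47 and 0.15. Without culture 2 those of the proteasome and glycolysis lists also changed sign, to 0.052 and 0.075.

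**Figure D3:**
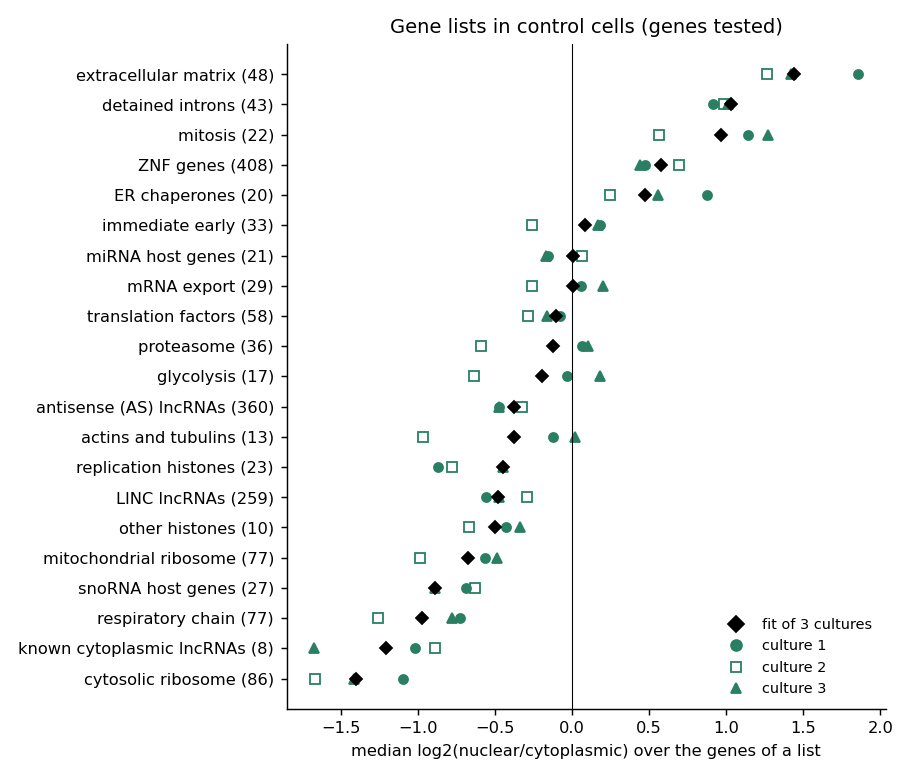
Median log2 N/C of 21 gene lists (number of genes tested in brackets) in the fit of the 3 cultures (diamonds) and in cultures 1, 2 (open squares) and 3, with equality as the vertical line. Among the diamonds the cytosolic ribosome lies lowest at -1.40 and the extracellular matrix highest at 1.44, and in the cytoskeleton list culture 2 (-0.96) lies apart from cultures 1 (-0.12) and 3 (0.022), a list whose median changed sign under quantile normalization.

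Long noncoding RNAs were called cytoplasmic/ER more often than nuclear. Of 1743 lncRNA genes, 161 (9.24%) were higher in the nuclear and 353 (20.3%) in the cytoplasmic/ER libraries, against 21.7% and 19.3% of protein-coding genes. Their median log2 N/C was -0.30 against 0.023, and -0.33 against 0.03 without culture 2, where 91 were called nuclear and 258 cytoplasmic/ER. Only polyadenylated RNA was sequenced, and MALAT1 ends without a poly(A) tail. Whether the counting used the strand is not given in the sources used here, so antisense lncRNAs may hold reads of the gene on the other strand.

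Of 7 lncRNAs known from the nucleus, 3 (42.9%) were higher in the nuclear and 2 (28.6%) in the cytoplasmic/ER libraries, against 9.24% and 20.3% of all lncRNAs. Without cultures 1, 2 and 3 in turn, 2, 1 and 2 were called nuclear and 2, 2 and 2 cytoplasmic/ER. NEAT1, the scaffold of paraspeckles (chr11:65190245-65213011, + strand, GRCh37), was at 21.7, 69.7 and 67.1 FPKM in the nuclear and 6.395, 6.69 and 17.9 FPKM in the cytoplasmic/ER libraries (log2 N/C 2.37 ± 0.56 (SE), limma adjusted p = 0.002, and 1.85 without culture 2, adjusted p = 0.024). MALAT1, its neighbour (chr11:65265111-65275544, + strand), a component of nuclear speckles, was at 22.1, 83.6 and 40.1 FPKM in the nuclear and 9.27, 9.05 and 9.31 FPKM in the cytoplasmic/ER libraries (log2 N/C 2.21 ± 0.66 (SE), limma adjusted p = 0.011), and the call was lost without culture 2 (1.70, adjusted p = 0.054). In both, as in TUG1 at 44.3, 86.4 and 46.5 FPKM in the nuclear and 27.2, 17.5 and 29.8 FPKM in the cytoplasmic/ER libraries (log2 N/C 1.25, adjusted p = 0.033, and 0.31 without culture 2, and not called without cultures 1 or 3 either), nuclear replicate 2 was the highest value. PVT1 and JPX went the other way: PVT1 was at 70.1, 134 and 54.8 FPKM in the nuclear and 223, 269 and 245 FPKM in the cytoplasmic/ER libraries (log2 N/C -1.57 ± 0.27 (SE), limma adjusted p = 0.00012) and JPX had -1.41 (adjusted p = 0.001). FTX and LINC-PINT did not pass the test (0.61 and 0.29).

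Of 8 lncRNAs known from the cytoplasm, 7 (87.5%) were higher in the cytoplasmic/ER libraries, against 20.3% of all lncRNAs. Without cultures 1, 2 and 3 in turn, 0, 0 and 0 were called nuclear and 5, 4 and 4 cytoplasmic/ER. DANCR was at 82.9, 113 and 75.8 FPKM in the nuclear and 312, 320 and 353 FPKM in the cytoplasmic/ER libraries (log2 N/C -1.84 ± 0.33 (SE), limma adjusted p = 0.00018), and GAS5, a snoRNA host gene, at 259.6, 478 and 361 FPKM in the nuclear and 689.5, 915 and 1185 FPKM in the cytoplasmic/ER libraries (log2 N/C -1.32 ± 0.34 (SE), limma adjusted p = 0.0041). OIP5-AS1 had -1.53, with nuclear replicate 2 above the lowest cytoplasmic/ER value, and was not called without culture 1. NORAD, which binds Pumilio proteins, was the exception at 29.8, 46.9 and 31.2 FPKM in the nuclear and 19.7, 22.8 and 25.05 FPKM in the cytoplasmic/ER libraries (log2 N/C 0.68, adjusted p = 0.13), where the groups did not overlap but the test was not passed. The paper, which imaged single NORAD molecules, describes it as mainly cytoplasmic in U2OS cells. The relative ratio given here does not show in which compartment most molecules lie. Of 27 snoRNA host genes, 11 (40.7%) were cytoplasmic/ER and 3 (11.1%) nuclear, against 20.3% and 9.24% of all lncRNAs. SNHG29 was lowest with -1.46. The nuclear ones were SNHG12 (1.65), SNHG14 (1.48) and SNHG3 (1.39), of which SNHG14 was also called without culture 2. For these host genes, without cultures 1, 2 and 3 in turn, 2, 1 and 1 were called nuclear and 7, 8 and 8 cytoplasmic/ER. Among 259 lncRNAs with a LINC name, 18 (6.95%) were nuclear and 59 (22.8%) cytoplasmic/ER, near the shares of all lncRNAs, and without cultures 1, 2 and 3 in turn, 16, 10 and 15 were called nuclear and 30, 56 and 39 cytoplasmic/ER. Among 360 named as antisense, 15 (4.17%) were nuclear and 107 (29.7%) cytoplasmic/ER, and without cultures 1, 2 and 3 in turn, 9, 10 and 12 were called nuclear and 51, 75 and 63 cytoplasmic/ER.

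Among the lncRNAs that the naming rule admitted, FAM106A stood at the nuclear end. It was at 12.96, 26.8 and 16.8 FPKM in the nuclear and 1.51, 0.993 and 1.94 FPKM in the cytoplasmic/ER libraries (log2 N/C 3.60 ± 0.45 (SE), limma adjusted p = 8.4e-06). MIR663AHG (3.38), LINC01609 (2.76), AC159540.1 (2.61), LINC00504 (2.41), NEAT1, LINC02895 (2.32), RP11-701H24.7 (2.27), MALAT1 and LINC02503 (2.18) followed. For LINC01609, LINC00504, LINC02895 and LINC02503 nuclear replicate 2 was the highest value, at 81.96, 63.5, 70.8 and 98.5 FPKM against 23.2, 18.3, 23.9 and 30.99 FPKM in nuclear replicate 1, and all 4 remained called without culture 2. AC159540.1 did not (adjusted p = 0.22), and RP11-701H24.7 was not called without culture 1 or 3. At the cytoplasmic/ER end of the admitted lncRNAs stood TP53TG1, a lncRNA induced by p53. It was at 9.55, 11.9 and 5.69 FPKM in the nuclear and 73.2, 121 and 80.9 FPKM in the cytoplasmic/ER libraries (log2 N/C -3.32 ± 0.50 (SE), limma adjusted p = 3.9e-05). LINC02242, LINC00460, LINC01116 and LINC01605 followed with -2.83, -2.42, -2.20 and -2.18 (gene ENSG00000253414, since 2 gene IDs share the last symbol), then ZNF232-AS1, LINC01610, PPP1R14B-AS1, DHX35-DT and CASC8 with -2.12 to -1.92. Of these 10, DHX35-DT was not called without culture 2 (adjusted p = 0.21) or without culture 1 or 3.

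Of 21 microRNA host genes, 3 (14.3%) were higher in the nuclear and 3 (14.3%) in the cytoplasmic/ER libraries. Of all lncRNAs it was 9.24% and 20.3%, and of all genes 20.2% and 19.2%, and with so few calls no difference from these shares is read. Those called cytoplasmic/ER were MIRLET7BHG, MIR4458HG and MIR762HG, with -1.26, -0.93 and -0.92, and none of them was called without culture 1. The transcript of a host gene is the precursor from which the microRNA is cut inside the nucleus. For the nuclear hosts, miR-663a and the 3p forms of the other mature microRNAs are shown, because 2 of them share a seed. The 5p forms are left out. Sequences are RNA from RefSeq (GRCh38.p14 annotation) with the seed, bases 2 to 8, in capitals.
hsa-miR-221-3p: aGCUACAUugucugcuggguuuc
hsa-miR-222-3p: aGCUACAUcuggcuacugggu
hsa-miR-663a: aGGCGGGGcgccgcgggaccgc
hsa-miR-23a-3p: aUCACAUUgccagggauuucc
hsa-miR-27a-3p: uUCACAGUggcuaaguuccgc
hsa-miR-24-3p: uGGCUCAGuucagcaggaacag
MIR222HG carries miR-221 and miR-222, whose 3p forms have the same seed, and was at 1.44, 5.04 and 1.85 FPKM in the nuclear and 0.107, 0.186 and 0.185 FPKM in the cytoplasmic/ER libraries (log2 N/C 3.29 ± 0.61 (SE), limma adjusted p = 0.00027). MIR663AHG carries miR-663a and was much higher in level, at 722, 187 and 677 FPKM in the nuclear and 42.5, 62.9 and 32.3 FPKM in the cytoplasmic/ER libraries (log2 N/C 3.38 ± 0.78 (SE), limma adjusted p = 0.0018). MIR23AHG carries miR-23a, miR-27a and miR-24-2, and was at 2.15, 3.98 and 2.76 FPKM in the nuclear and 0.635, 1.41 and 1.23 FPKM in the cytoplasmic/ER libraries (log2 N/C 1.42 ± 0.36 (SE), limma adjusted p = 0.0036). In each of the 3 the nuclear and cytoplasmic/ER values did not overlap, and each was also called without culture 2. The mature microRNAs themselves have no poly(A) tail and were not measured.

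Across 12333 protein-coding genes with transcript features, log2 N/C rose with the length of the coding sequence and fell with GC content. Spearman's rho across genes, which are not independent replicates, was 0.47 for coding length (0.45, 0.42 and 0.45 in cultures 1, 2 and 3) and -0.45 for GC content of the transcript (-0.38, -0.55 and -0.31), each a median over the gene's annotated transcripts. The median coding length was 1692 nt in the genes called nuclear, 591 nt in those called cytoplasmic/ER and 922 nt in the others, and the median GC content 43.7%, 56.6% and 50.5%. Coding length and GC content were nearly unrelated to each other (rho -0.047), and with the ranks of GC held constant the rho for coding length was 0.50. Pre-mRNA length had a rho of 0.37, mRNA length 0.40, number of exons 0.33 and 3′UTR length 0.15. With coding length held constant, the rho of the number of exons was 0.0053 and that of pre-mRNA length 0.20.

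The change with coding length was steady from bin to bin. In genes with under 0.5 kb of coding sequence, 198 of 2439 were called nuclear and 917 cytoplasmic/ER, with a median log2 N/C of -0.51. Above 6 kb, 96 of 138 were called nuclear and 2 cytoplasmic/ER, with a median of 1.44 (without culture 2, -0.48 and 1.34). The order of the 8 bins was the same in each culture. For GC content, the median went from 0.66 under 40% to -0.64 over 65%, with a wider span in culture 2 (0.93 to -0.96) than in cultures 1 (0.63 to -0.51) and 3 (0.40 to -0.44). The features were then crossed. Of 254 genes with over 4 kb of coding sequence and a GC content below the median of 49.7%, 216 were called nuclear and 0 cytoplasmic/ER (median 1.62), and of 3409 with under 1 kb and a GC content above it 137 and 1372 (median -0.56). In bins of pre-mRNA length, the median went from -0.44 under 10 kb to 0.42 over 50 kb, and in bins of exon number from -0.31 at 3 exons to 0.55 at 12 or more, with -0.06 in the 201 genes with 1 exon.

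**Figure D4:**
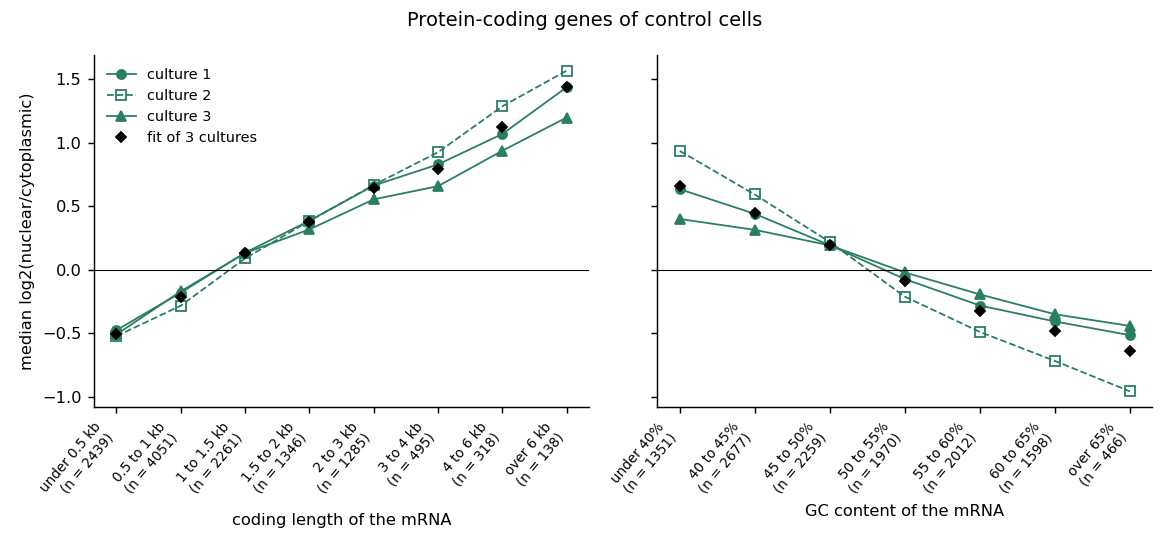
Median log2 N/C of protein-coding genes in bins of coding length (left) and of GC content (right), for the fit of 3 cultures (diamonds) and for cultures 1, 2 (open squares, dashed) and 3, with the number of genes under each bin. The medians climb with coding length from -0.51 to 1.44 and go down with GC content from 0.66 to -0.64, and culture 2 has the steepest line for GC.

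Short sequence motifs of the transcript, counted on the sense strand as matches per kb, are given as descriptions. GTAAGT, the consensus of the 5′ splice site, had a rho of 0.19, ATTTA, the core of AU-rich elements, 0.34, and ACCTCCC or GCCTCCC, the core of an element read by HNRNPK in Alu repeats, -0.076. Of the protein-coding genes, 19.8%, 71.6% and 45.7% had a median count above 0 for these. A match is a run of letters and no sign of use. In lncRNAs the same features were nearly flat: rho was -0.053 for pre-mRNA length, -0.05 for number of exons and -0.16 for GC content, over 1737 genes.

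Each fraction was also set against the total library of the same culture, a comparison chosen after the values were seen. All libraries were levelled by the median ratio of their genes, so these ratios are relative, and in which fraction a trend lies was not tested. In culture 1 the log2 ratio of cytoplasmic/ER to total fell with coding length (rho -0.37) while that of nuclear to total hardly moved (rho 0.071), and in culture 3 the values were -0.39 and 0.10. Genes with over 4 kb of coding sequence had a median of -1.24 (culture 1) and -1.01 (culture 3) for cytoplasmic/ER to total, and of 0.059 and 0.14 for nuclear to total. Culture 2, whose nuclear and total libraries stood apart from their labels, gave rho of -0.50 and -0.026. For GC content, by contrast, both fractions rose against total in cultures 1 and 3 (rho 0.61 and 0.52 for cytoplasmic/ER, 0.39 and 0.24 for nuclear), and in culture 2 the rho for nuclear to total was -0.61. The ribosomal protein mRNAs were 1.51 and 1.53 above total in the cytoplasmic/ER libraries of cultures 1 and 3 (median log2), and 0.31 and 0.067 above it in the nuclear ones.

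**Figure D5:**
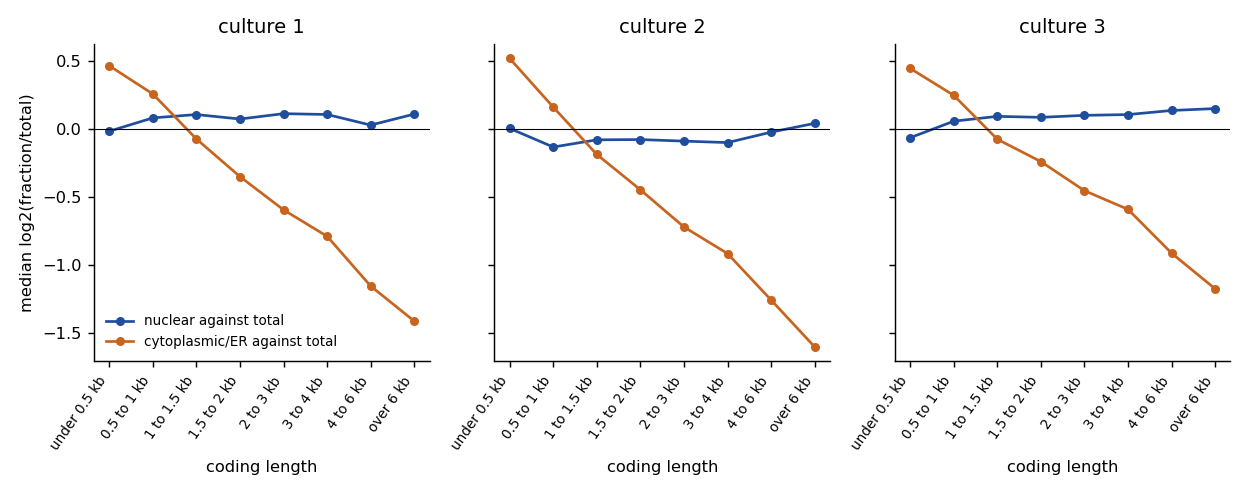
Median log2 of nuclear to total (blue) and of cytoplasmic/ER to total (orange) FPKM of protein-coding genes in 8 bins of coding length, in a panel for each culture. The orange line falls from bin to bin in all 3 panels, while the medians on the blue line stay between -0.13 and 0.15.

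The TPR-depleted cells of the series gave the same contrast in other samples. With the TPR A shRNA, 2221 genes were higher in the nuclear and 1927 in the cytoplasmic/ER libraries (15.2% and 13.2% of genes tested), and with TPR D 2503 and 2134 (17.1% and 14.6%). Of the control nuclear calls, 65.2% were shared by TPR A cells and 74.2% by TPR D cells, and these made 86.4% and 87.3% of the nuclear calls with those shRNAs. For cytoplasmic/ER calls the shares were 55.7% and 64.8% of the control calls, and 81.1% and 85.2% of those with TPR A and TPR D. No gene passed the test of a difference in N/C between TPR A and control cells, or between TPR D and control cells (limma). At an unadjusted p below 0.05 there were 215 and 120 of 14611 genes, fewer than the share of 0.05 that evenly spread p-values would give. With weights estimated for each library, an alternative chosen after seeing the data, 8 genes passed for TPR D and 0 for TPR A. The median SE of the difference was 0.42, against 0.30 for log2 N/C in control cells, so differences can be missed. Control culture 2 was part of this fit. In its sequencing data the paper compared groups of genes, and reported a rise in N/C for mRNAs from short and intron-poor genes. By imaging, it also reported more nuclear NORAD, HIST1H1A and reporter RNA after TPR depletion. In TPR A and TPR D cells ANLN had a log2 N/C of 4.44 and 4.52, ASPM 3.65 and 4.2, FTL -2.60 and -2.96, and TP53TG1 -2.11 and -2.14. The list medians were -0.98 and -0.90 for cytosolic ribosomal proteins (-1.40 in control cells) and -0.32 and -0.36 for the respiratory chain (-0.98). They were 1.52 and 1.54 for the matrix (1.44) and 0.89 and 0.97 for genes with detained introns (1.03). For the replication-dependent histones they were 0.23 and 0.79, against -0.45 in control cells. With TPR A and TPR D, 53 and 50 cytosolic ribosomal genes were called cytoplasmic/ER, against 80 in control cells. In the respiratory chain it was 12 and 17 against 49, and in the mitochondrial ribosome 11 and 10 against 37. Of the matrix genes 32 and 35 were called nuclear, against 31. Whether the lists differ from control cells was not tested. Coding length had a rho of 0.42 and 0.39 with log2 N/C in these cells, and GC content -0.25 and -0.40.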

How the data were processed

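Poly(A)+ RNA libraries were made by the submitters with a directional kit. The authors mapped reads with Salmon to an index of Gencode release 19 protein-coding and long noncoding transcripts (hg19), took gene levels from tximport and deposited them as FPKM (34464 genes). Of the gene IDs, 32776 matched GENCODE release 44 placed on GRCh37, which gave symbols, classes and transcript features, and 1688 did not. Counts were not used here, and no column of the file was left without a sample. The depth was estimated from the 5094 low values of genes with 1 transcript, of which 87.4% lay within 0.1 of a whole read.

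For the tests, FPKM over a median-of-ratios factor of each library were taken as log2(FPKM + 0.1), a scale that understates the change of low genes. limma 3.58.1 in R 4.3.3 fitted the 27 libraries as 9 groups (moderated by eBayes, trend on), and p-values were adjusted by Benjamini-Hochberg and called below 0.05. SE are limma's. The deviations of same-numbered nuclear and cytoplasmic/ER libraries from their group means correlated with 0.38, 0.28 and 0.40 across genes, each over 0.1, and both fractions were split from a culture, so the culture was also taken as a block. The methods call the replicates biological, with no more said of their origin.

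Genes named were, among those with a symbol, a mean of at least 5 FPKM over the 6 libraries, an adjusted p below 0.05 and the same sign in each culture, the 10 protein-coding and 10 lncRNA genes at either end, the 5 most abundant in each fraction, and members of the gene lists (the 4 at each end and the best known). The comparison, the lists and the rules were chosen with earlier results of these data known. Bins of coding length and GC content were added after the values were seen. Alternatives were 3 other scalings, pseudocounts of 1 and 0.01, other minimum levels, each culture left out, blocks, no trend, array weights and the longest transcript. The authors' own fold changes were not used.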

Additional observations from a re-analysis of the deposited data

Results flagged for a closer look

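Of the genes named, DHX35-DT had a negative log2 N/C in all 3 control cultures (-1.75, -2.86 and -1.24) and a positive one in all 3 TPR A cultures (0.50, 0.45 and 0.49), a difference of 2.43 that did not pass limma's test of the difference over all genes (adjusted p = 0.99). HIST1H4B, a histone H4 gene, was negative in the control cultures (-6.08, -1.71 and -2.95) and positive in the TPR D cultures (3.55, 0.24 and 0.57), a difference of 5.04 (adjusted p = 1). Its nuclear control values were 0, 0.186 and 0 FPKM and its cytoplasmic/ER values 7.01, 0.866 and 0.693 FPKM, with 2 nuclear values listed at 0, so its ratio depends on the pseudocount, and its call was lost without culture 1.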

How the results depend on the processing

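With 1 culture left out, 1895 to 2339 genes were called nuclear and 1794 to 2071 cytoplasmic/ER, the lowest counts without culture 1. The other scalings, pseudocounts, minimum levels and models gave 2256 to 3826 nuclear and 2254 to 3666 cytoplasmic/ER calls. With the culture as a block, 3440 genes were nuclear and 3425 cytoplasmic/ER, and in a paired fit of the control libraries alone 3441 and 3476. In the paired fit over all libraries SEC61B lost its call and TGFBI and H2BC15 gained one, and no other of the 130 genes followed here changed. Upper-quartile scaling shifted the median log2 N/C to 0.06 and gave 3194 nuclear and 2500 cytoplasmic/ER calls. Under quantile normalization 10 of the 130 genes lost their call without a change of sign. Besides these, the called genes RPL10 (0.0075), EEF1A1 (0.57) and RPL3 (0.36) changed sign and so lost their cytoplasmic/ER call. RPL6 (0.61), GAPDH, ACTB, DDX39B, PLK1 and CCNB2, which had not passed the test, changed sign as well, and the cause was not tested. Leaving out cultures 1, 2 and 3 took the call from 23, 24 and 18 of them, with no change of sign in a called gene.

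For the correlations with features, the longest transcript in place of the median gave 0.56 for coding length, 0.49 for mRNA length, 0.38 for number of exons, 0.26 for 3′UTR length and -0.12 for ACCTCCC or GCCTCCC, and a minimum of 5 FPKM 0.37 for number of exons. With 1 culture left out the range was 0.30 to 0.41 for pre-mRNA length, 0.36 to 0.41 for mRNA length, 0.46 to 0.47 for coding length, 0.11 to 0.17 for 3′UTR length, 0.31 to 0.33 for number of exons, -0.49 to -0.36 for GC content, 0.15 to 0.21 for GTAAGT, -0.085 to -0.063 for ACCTCCC or GCCTCCC, 0.26 to 0.38 for ATTTA. In lncRNAs it was -0.11 to -0.018 for pre-mRNA length, -0.11 to -0.013 for number of exons and -0.18 to -0.10 for GC content. The mitochondrial share differed by -29.4 to -19.8 percentage points (nuclear minus cytoplasmic/ER) when 1 culture was left out. For the difference in N/C between TPR A and control cells a pseudocount of 1 gave 1 call, and leaving out 1 culture 0 to 1. For TPR D leaving out 1 culture gave 0 to 1, and array weights, chosen after seeing the data, 8. At this depth a gene of 1 FPKM and 1 kb rests on 32.00 to 49.8 reads, and the median SE of log2 N/C was 0.30.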
